A study of Mus musculus with 24 samples.

Results

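The 10 enzyme genes of O-GlcNAc cycling and of the hexosamine pathway were followed across 24 RNA-seq libraries of mouse bone marrow-derived macrophages. They are Ogt, Mgea5, Gfpt1, Gfpt2, Gnpnat1, Pgm3, Uap1, Nagk, Amdhd2 and Gnpda1, chosen by gene symbol for their place in the pathway. The choice was made with earlier results of these data known. These are 10 of the 24421 gene symbols counted, and all 10 passed the filter on low counts that left 14693 genes for testing. Mgea5 is the older symbol, used in the count files, of the gene now called Oga.

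Macrophages of this kind are grown from marrow precursors in culture. OGT knockout (KO) and wild-type (WT) cells of the C57BL/6J strain, labelled with an age of 12 weeks, were compared at rest (M0), after LPS at 100 ng/ml for 12 hours and after IL-4 at 10 ng/ml for 12 hours. Each of the 6 groups held 4 libraries, made from total RNA. LPS is a bacterial cell wall component that drives the inflammatory state of macrophages, and IL-4 is the cytokine that drives their alternative state. The sources used here do not give how the knockout was made, which part of the gene it removes, or whether the libraries of a group came from separate animals or cultures. The p-values therefore measure the spread between these libraries. Libraries carry the numbers 5 to 8 in KO and 1 to 4 in WT.

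O-GlcNAc is a single sugar, N-acetylglucosamine, that is attached to serines and threonines of nuclear and cytosolic proteins. The enzyme OGT attaches it and the enzyme OGA removes it. The donor, UDP-GlcNAc, is made from fructose 6-phosphate and glutamine in the hexosamine pathway, whose first step, run by GFAT enzymes, limits the flow. A salvage route returns free N-acetylglucosamine to the pathway, and a pair of enzymes takes the amino sugar phosphates back towards glycolysis. In other cells, levels of OGT and OGA are known to follow each other.

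Between 63429271 and 94942464 gene counts were available in each of 21 deep libraries. The other 3 were shallow, with 172771 to 209368 counts: KO LPS 7 and WT LPS 1 and 2. Levels are given as counts per 1e6 counts (CPM) on TMM-scaled library sizes, where TMM is the edgeR scaling between libraries. A count of 0 allows up to 3 counts, which is 0.0303 to 0.055 CPM in a deep library and 15.5 to 17.9 CPM in a shallow one, counting error only. Of the 40 results of the members that involve LPS libraries, 17 were called, and the same 17 were called without the 3 shallow libraries, with estimates that moved by -0.032 to 0.034 on the log2 scale. A further 1, Nagk in KO against WT, was called without them. Of 200 such results of genes on the lists below, 78 were called, 76 of these were called without the shallow libraries as well, and 8 others were gained. The labelled stimuli were visible in their marker genes: Nos2 was higher by 10.53 ± 0.30 in KO and 9.98 ± 0.35 in WT after LPS on the log2 scale, and Arg1 by 8.90 ± 0.27 and 9.30 ± 0.27 after IL-4 (edgeR quasi-likelihood, adjusted p at most 8.11e-19).

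The macrophage label was checked against 8 marker genes, of which 7 were in the files. All 7 were well above the floor in every deep library, for example Csf1r, the receptor for the macrophage growth factor, at 751 to 1487 CPM, and the lysozyme gene Lyz2 at 2183 to 9855 CPM. Their summed level was lower in KO: the M0 libraries spanned 7155 to 8875 CPM in KO and 11600 to 13180 CPM in WT. Stromal markers (8 of 8 genes present, none at 0, among them Col1a1 and Dcn) were high everywhere and higher in KO. Their sum spanned 14750 to 19240 CPM in KO and 10320 to 12020 CPM in WT at rest. With LPS these spans were 16310 to 18810 CPM in KO and 11350 to 14200 CPM in WT, and with IL-4 they were 10800 to 14100 CPM in KO and 7340 to 7894 CPM in WT. Endothelial markers (7 of 7 present) summed at rest to 43.6 to 97.0 CPM in KO and to 25.4 to 28.2 CPM in WT. The sums of T and NK cell markers (at most 0.277 CPM in deep libraries, with Cd3e at 0 in both M0 groups) and of mast cell markers (at most 0.24 CPM) stood near 0. The macrophage, stromal and endothelial sums moved with genotype beside every KO against WT result below. The part of these sums in those results was not tested. In bulk RNA, fewer cells of a type and less RNA per cell cannot be told apart.

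Ogt and Mgea5, the genes that write and erase the mark, fell in KO in all 3 states. The entry enzyme gene Gfpt1 was called higher in all 3, and Gnpda1, Amdhd2 and Nagk, which handle returning amino sugars, were called higher in 1 or 2 states each. The Gfpt1 call in M0 ended in 12 of 19 alternative fits, and the Amdhd2 call in LPS in 9 of 20. A gene was called when its Benjamini-Hochberg adjusted p over all 14693 genes was under 0.05 (edgeR quasi-likelihood test, 1 fit over the 24 libraries). In M0, 3 of the 10 members were called higher in KO, where 11.8% of all genes were, and 2 were called lower, where 10.5% were. In LPS, 2 were called higher (16.2% of all genes) and 2 lower (14.6%). In IL-4, 4 were called higher (17.9%) and 2 lower (18.2%). KO and WT libraries did not overlap for 3 members in M0 (27.1% of all genes), 3 in LPS (12.9%) and 6 in IL-4 (37.1%). The median log2 fold change of the 10 members was 0.12 in M0, 0.068 in LPS and -0.011 in IL-4, beside 0.015, 0.012 and 0.0065 over all genes. Each count of members called rests on 10 genes, and nothing particular to the 10 was read from it.

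**Figure D1:**
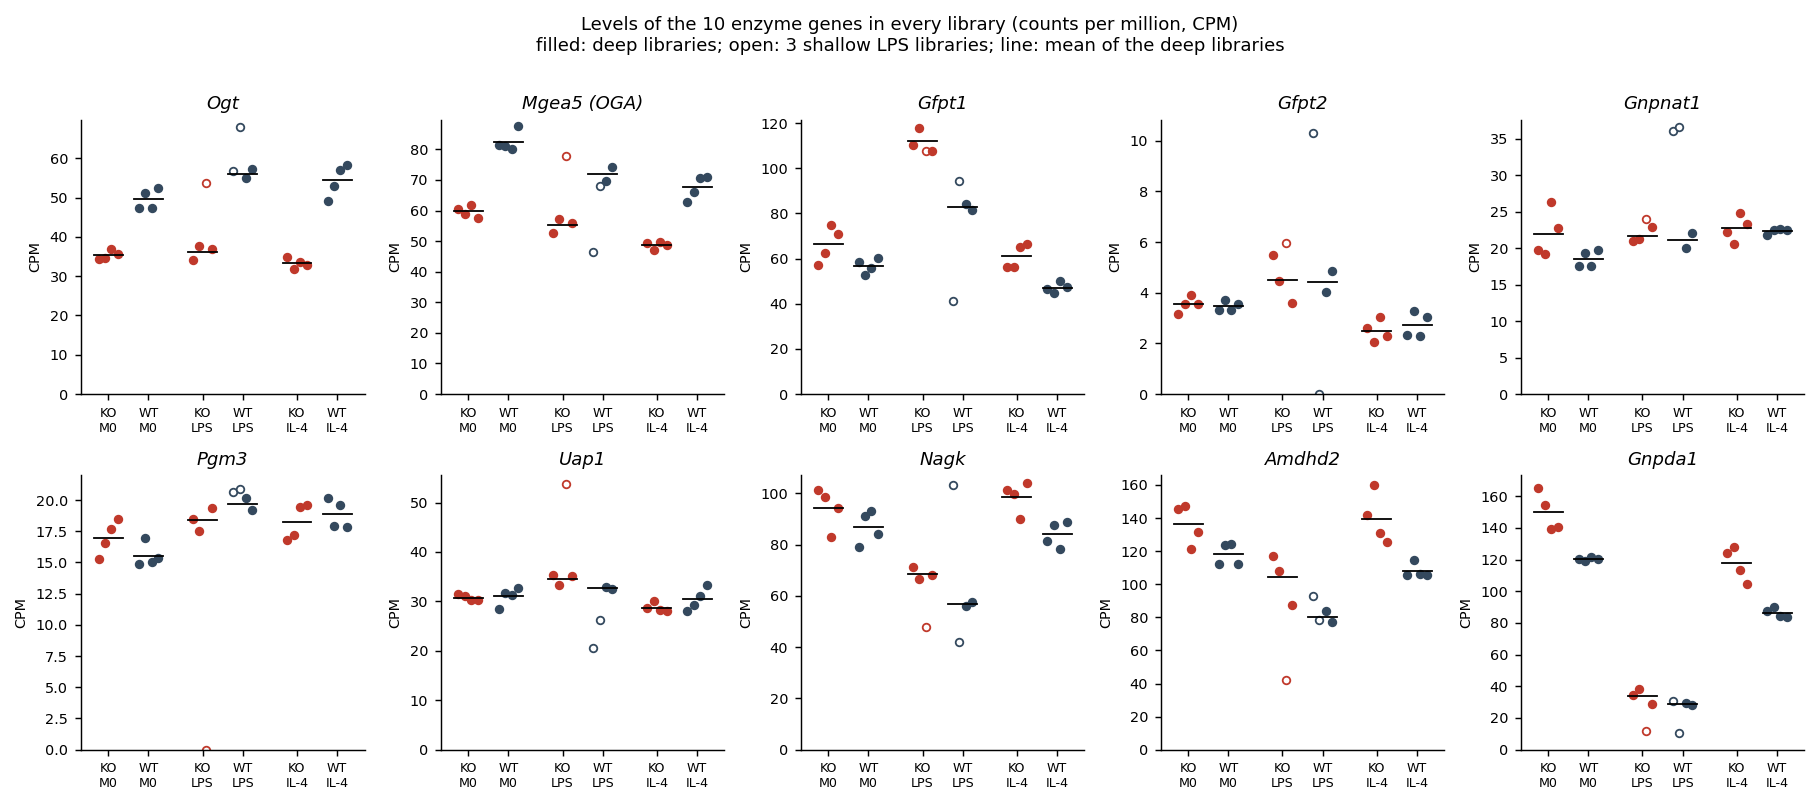
Level of each of the 10 genes in every library, in CPM (y axis, from 0), by group (x axis, KO left of WT in each state). Filled points are deep libraries, open points the 3 shallow LPS libraries, and lines the means of the deep libraries; Ogt and Mgea5 are lower in KO in each state, and Gnpda1 has 28.7 to 38.0 CPM in deep KO LPS libraries and 139 to 165 CPM at rest.

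Per kilobase of summed exons (GENCODE M21, GRCm38), the M0 levels of the members spread over more than an order of magnitude. Amdhd2 stood highest, at 37.3 ± 3.3 CPM per kb in KO and 32.3 ± 1.9 in WT (SD, n = 4 each), followed by Gnpda1 at 34.8 ± 2.9 in KO and 27.9 ± 0.28 in WT. Nagk followed at 20.2 ± 1.7 CPM per kb in KO and 18.6 ± 1.4 in WT. The other members were lower: Uap1 at 7.67 and 7.73, Mgea5 at 6.95 and 9.61, Gfpt1 at 6.58 and 5.64, Ogt at 4.40 and 6.16, Gnpnat1 at 4.64 and 3.91 and Pgm3 at 3.79 and 3.46 CPM per kb in KO and in WT. Gfpt2 was lowest at 0.632 CPM per kb in KO and 0.62 in WT. The deaminase, deacetylase and kinase genes of the return and salvage routes thus had the highest mRNA levels of the 10 per unit length.

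Ogt encodes the enzyme that attaches O-GlcNAc to nuclear and cytosolic proteins and is the targeted gene. It lies on chromosome X (GRCm38, 101640060 to 101684351, plus strand), and its counts cover all its exons, so they do not measure the deleted part alone. In M0, KO libraries 5 to 8 held 34.5, 34.6, 36.9 and 35.8 CPM, and WT libraries 1 to 4 held 47.3, 51.3, 47.4 and 52.4 CPM. After LPS the KO libraries held 34.2, 37.6, 53.8 and 37.0 CPM, where 53.8 rests on 9 counts in shallow library 7, and the WT libraries held 56.7, 68.0, 55.0 and 57.2 CPM, of which the first pair rests on 11 and 13 counts. With IL-4 the KO libraries held 34.8, 31.9, 33.6 and 32.8 CPM and the WT libraries 49.2, 53.1, 56.9 and 58.2 CPM. Each KO library lay below each WT library of the same state, and KO kept 0.714 of the WT level in M0, 0.646 in LPS and 0.613 in IL-4. The log2 fold change of KO against WT was -0.49 ± 0.057 (SE) in M0, -0.63 ± 0.072 in LPS and -0.71 ± 0.057 in IL-4, with adjusted p of 1.01e-06, 4.21e-07 and 2.82e-09. These calls held in all alternatives run.

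Ordered by the mean of the deep libraries, Ogt ran from KO IL-4 (33.3 CPM) through KO M0 (35.4), KO LPS (36.2), WT M0 (49.6) and WT IL-4 (54.4) to WT LPS (56.1). The ranges of neighbouring groups overlapped within each genotype, and a gap from 37.6 to 47.3 CPM separated the deep KO libraries from the WT ones.

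Among 250-base windows before the annotated start, in the RefSeq promoter table of GRCm38.p6, 8 of the 10 members had an entry. Gnpnat1 and Gnpda1 had none. On both strands, 7 motifs were searched: TTCNNNGAA (STAT), TGACGTCA (CRE), TGACGTGG (UPRE), TGATGCAA (ATF4), GGGNNTTTC (NF-kB), CACGTG (E-box) and CCAAT. None of these motifs is part of another. Ogt, Mgea5 and Nagk held none of them, which says only that these letters are absent from these windows. The Mgea5 window (chr19:45783554-45783803) lies wholly inside the gene in GENCODE, whose start is at 45783837, and partly inside it in RefSeq. Its letters and GC content are therefore not those of bases before the gene alone. The sequences before Ogt, the gene that fell most, and before Gfpt1 and Amdhd2, members that were higher in KO, are shown 5′ to 3′ with motif matches in capitals. Bases that lie inside the gene in either annotation were left off.
Ogt, chrX:101639801-101640010, plus strand: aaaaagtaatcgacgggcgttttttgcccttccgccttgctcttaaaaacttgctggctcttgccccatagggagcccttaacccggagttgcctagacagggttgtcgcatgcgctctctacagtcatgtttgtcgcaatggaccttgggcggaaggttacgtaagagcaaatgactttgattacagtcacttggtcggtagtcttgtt
Gfpt1, chr6:87042596-87042845, plus strand: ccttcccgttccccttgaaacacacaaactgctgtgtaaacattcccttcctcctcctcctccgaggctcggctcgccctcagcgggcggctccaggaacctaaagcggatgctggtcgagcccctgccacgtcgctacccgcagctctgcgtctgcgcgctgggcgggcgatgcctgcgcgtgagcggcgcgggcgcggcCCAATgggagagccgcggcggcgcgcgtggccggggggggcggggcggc
Amdhd2, chr17:24163767-24163983, minus strand: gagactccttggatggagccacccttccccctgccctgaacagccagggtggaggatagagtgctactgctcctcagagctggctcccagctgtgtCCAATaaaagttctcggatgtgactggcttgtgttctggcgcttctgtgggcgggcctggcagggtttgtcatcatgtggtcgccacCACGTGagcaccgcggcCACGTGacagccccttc
The capitals in Gfpt1 mark 1 CCAAT match and those in Amdhd2 mark 1 CCAAT and 2 CACGTG matches. The third CACGTG of the Amdhd2 window lies among the 33 bases left off, 23 to 18 bases before the RefSeq start. CACGTG occurred at least once in 6.02% of 32851 windows and at least 3 times in 0.0609% of them, a count looked up after the matches in Amdhd2 were seen. CCAAT occurred in 33.8% of windows, and also in those of Gfpt2, Pgm3 and Uap1. STAT occurred in 7.02%, CRE in 1.55%, UPRE in 0.563%, ATF4 in 0.791% and NF-kB in 3.72% of windows, and in no member. GC content was 49.6% in the first Ogt window, 64.4% in that of Mgea5, 72% in that of Gfpt1 and 61.6% in that of Amdhd2, beside a median of 52.4% over all windows.

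Mgea5 encodes OGA, the enzyme that removes O-GlcNAc (chromosome 19, 45750259 to 45783837, minus strand). Its KO M0 libraries held 60.6, 58.7, 61.9 and 57.6 CPM and its WT M0 libraries 81.5, 81.1, 80.0 and 87.6 CPM. LPS libraries had 52.6, 57.2, 77.7 and 55.8 CPM in KO and 46.4, 68.0, 69.5 and 74.3 CPM in WT. The values 77.7, 46.4 and 68.0 CPM rest on 13, 9 and 13 counts in the shallow libraries. With IL-4 the KO libraries held 49.4, 47.0, 49.8 and 48.6 CPM and the WT libraries 62.9, 66.1, 70.8 and 70.97 CPM. The genotypes were apart in M0 and in IL-4, and overlapped in LPS through the shallow libraries. As log2 fold changes these were -0.47 ± 0.055 in M0, -0.35 ± 0.069 in LPS and -0.47 ± 0.055 in IL-4 (SE; adjusted p = 1.08e-06, 0.00037 and 6.42e-07), and these calls also held in all alternatives run. By the mean of deep libraries the order was KO IL-4 (48.7 CPM), KO LPS (55.2), KO M0 (59.7), WT IL-4 (67.7), WT LPS (71.9) and WT M0 (82.6). Of these neighbours, only WT IL-4 and WT LPS overlapped, and KO M0 and WT IL-4 lay 61.9 and 62.9 CPM apart at their nearest libraries.

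**Figure D2:**
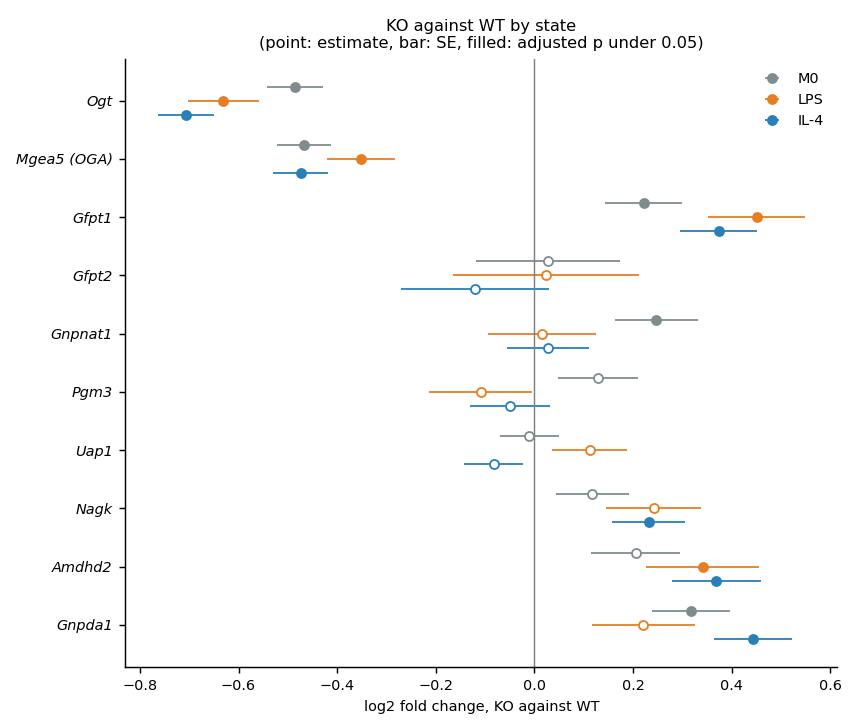
Log2 fold change of KO against WT (x axis) for each of the 10 genes (y axis) in M0, LPS and IL-4, with SE bars. Filled points have an adjusted p under 0.05 (edgeR); Ogt lies between -0.71 and -0.49 and Mgea5 between -0.47 and -0.35, while Gfpt1 lies between 0.22 and 0.45.

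The number of Ogt counts per Mgea5 count, taken within each library with 0.5 added to both, does not depend on how libraries are scaled. In M0 it was 0.569 to 0.621 in KO and 0.58 to 0.632 in WT, so both transcripts were lower in KO by about the same factor. The difference on the log2 scale was -0.017 (exact two-sided permutation test, p = 0.629, adjusted over 3 tests 0.629). In IL-4 the ratio was 0.674 to 0.705 in KO and 0.784 to 0.821 in WT, a log2 difference of -0.23 with no overlap. Its p of 0.0286 is the smallest that 4 against 4 libraries can give, and the adjusted p was 0.0429. In LPS the ratio was 0.650 to 0.704 in KO and 0.770 to 1.21 in WT, a log2 difference of -0.47 with the same p of 0.0286 (exact permutation test, adjusted 0.0429). The highest WT value, in library 1, rests on 11 Ogt and 9 Mgea5 counts. In deep LPS libraries it was 0.650 to 0.662 in KO and 0.770 to 0.791 in WT, and the log2 difference without the shallow libraries was -0.25 (adjusted p = 0.15), a design of 3 against 2 that cannot pass the threshold. The test of each state was separate, and whether the ratio difference in IL-4 or LPS exceeds that in M0 was not tested. The interactions below test Ogt and Mgea5 each alone, not their ratio.

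**Figure D3:**
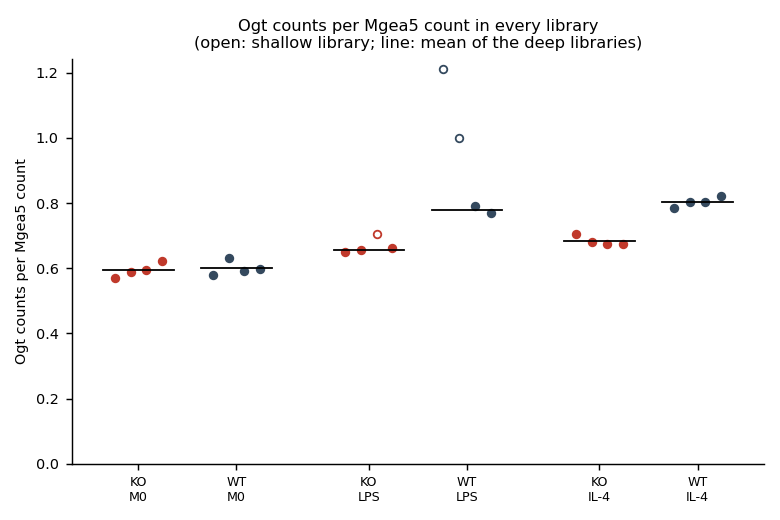
Ogt counts per Mgea5 count (y axis, from 0) in every library by group (x axis, KO left of WT). Open points are shallow libraries and lines are means of the deep libraries; KO and WT intermix in M0 at 0.569 to 0.632, and the KO libraries lie below the WT libraries in LPS and in IL-4.

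Gfpt1 and Gfpt2 encode GFAT1 and GFAT2, which make glucosamine 6-phosphate from fructose 6-phosphate and glutamine. Gfpt1 was higher in KO in all 3 states, and its KO M0 libraries held 57.1, 62.5, 74.8 and 70.9 CPM, while the WT ones held 58.5, 52.6, 55.7 and 60.5 CPM. The KO M0 libraries split by number, since libraries 5 and 6 overlapped WT and libraries 7 and 8 lay above it. Libraries 7 and 8 were also those with the higher endothelial marker sums, 91.5 and 97.0 CPM beside 43.6 and 46.5 CPM in libraries 5 and 6, and the higher stromal sums, 19240 and 18480 CPM beside 14750 and 16210 CPM. The part of these markers in the result was not tested. After LPS the KO libraries stood at 110, 118, 108 and 108 CPM and the deep WT libraries 3 and 4 at 84.4 and 81.5 CPM, with 41.3 and 94.1 CPM (8 and 18 counts) in shallow WT libraries. With IL-4 the KO libraries held 56.2, 56.4, 65.2 and 66.5 CPM and the WT libraries 46.6, 44.7, 49.9 and 47.3 CPM. In LPS and in IL-4 all KO libraries lay above all WT libraries.

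The log2 fold change of Gfpt1 was 0.45 ± 0.098 in LPS (adjusted p = 0.00102) and 0.37 ± 0.078 in IL-4 (adjusted p = 0.000622), and both calls held in all alternatives. In M0 it was 0.22 ± 0.078 (adjusted p = 0.0421), and this call ended in 12 of 19 alternatives. It was 0.073 (adjusted p = 0.483) without KO numbers 7 and 8. Single libraries also ended it: without KO M0 7 the log2 fold change was 0.16 (adjusted p = 0.183), without KO M0 8 it was 0.19 (0.13), and without WT M0 1, 2 or 3 it was 0.24 (0.0575), 0.19 (0.128) and 0.21 (0.0961). Gfpt2 was expressed at a few CPM, from 3.16 to 3.90 CPM in resting KO and 3.30 to 3.71 CPM in resting WT libraries, and overlapped between genotypes in each state. Its log2 fold changes were 0.027 ± 0.15 in M0, 0.024 ± 0.19 in LPS and -0.12 ± 0.15 in IL-4, none of which was called (adjusted p = 0.921, 0.946 and 0.559). Gfpt2 made up 3.24% to 5.37% of the summed Gfpt1 and Gfpt2 counts in deep KO libraries and 4.41% to 6.83% in deep WT libraries.

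The middle enzymes turn glucosamine 6-phosphate into UDP-GlcNAc. Gnpnat1 encodes the acetyltransferase of the second step, Pgm3 the mutase that moves the phosphate, and Uap1 the pyrophosphorylase that joins the sugar to UDP. Gnpnat1 held 19.7, 19.2, 26.3 and 22.8 CPM in KO M0 and 17.5, 19.3, 17.5 and 19.7 CPM in WT M0, so that KO libraries 7 and 8 lay above WT, library 6 lay within the WT range and library 5 stood level with the highest WT library. Its M0 log2 fold change of 0.25 ± 0.084 was called (adjusted p = 0.0355), and the call ended in 10 of 19 alternatives. The value was 0.073 (adjusted p = 0.518) without KO numbers 7 and 8, 0.15 (0.202) without KO M0 7, 0.23 (0.0899) without KO M0 8, 0.22 (0.0955) without WT M0 1 and 0.22 (0.105) without WT M0 3. In LPS and IL-4 the log2 fold change of Gnpnat1 was 0.015 ± 0.11 and 0.027 ± 0.084, not called.

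Pgm3 differed by 0.13 ± 0.081 in M0, -0.11 ± 0.11 in LPS and -0.050 ± 0.081 in IL-4 (adjusted p = 0.272, 0.462 and 0.666). The M0 difference of Pgm3 was called without KO numbers 5 and 6 (0.22, adjusted p = 0.0497). Its deep libraries lay between 15.3 and 19.6 CPM in KO and between 14.9 and 20.1 CPM in WT, while shallow KO LPS 7 had a count of 0. Uap1 differed by -0.010 ± 0.060 in M0, 0.11 ± 0.077 in LPS and -0.083 ± 0.060 in IL-4 (adjusted p = 0.928, 0.283 and 0.291). Uap1 ran from 28.0 to 35.3 CPM in deep KO libraries and from 28.1 to 33.3 CPM in deep WT libraries, the narrowest span of group means of the 10 members (0.27 on the log2 scale). For both genes the standard errors leave genotype differences of the order of 0.1 on the log2 scale undetectable.

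The last 3 enzymes work on amino sugars that return from glycan breakdown or run back towards glycolysis. Nagk encodes the kinase that rescues free N-acetylglucosamine, Amdhd2 the deacetylase that acts on N-acetylglucosamine 6-phosphate, and Gnpda1 a deaminase that turns glucosamine 6-phosphate into fructose 6-phosphate. Gnpda1 held 165, 154, 139 and 141 CPM in KO M0 and 120, 119, 122 and 120 CPM in WT M0. With IL-4 it held 124, 128, 113 and 105 CPM in KO and 87.8, 89.8, 84.6 and 83.5 CPM in WT. In both states all KO libraries lay above all WT libraries. The log2 fold change in M0 was 0.32 ± 0.079, with an adjusted p of 0.00483. In IL-4 it reached 0.44 ± 0.079 (adjusted p = 0.000123). The M0 call ended when neighbouring library numbers were summed (0.31, adjusted p = 0.169). In LPS the difference was 0.22 ± 0.11 and not called (adjusted p = 0.113). It was called in 2 of 20 alternatives, among them the one without KO LPS 8 (0.32, adjusted p = 0.018). Over the 20 alternatives the LPS estimate ran from -0.025 to 0.33, so its sign was not stable.

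Amdhd2 had 142, 160, 131 and 125 CPM in KO IL-4 against 105, 115, 106 and 106 CPM in WT IL-4, with no overlap and a log2 fold change of 0.37 ± 0.090 (adjusted p = 0.00253). That call ended when neighbouring numbers were summed (adjusted p = 0.0683). After LPS the deep KO libraries 5, 6 and 8 held 117, 108 and 87.5 CPM, shallow KO library 7 held 41.9 CPM from 7 counts, and WT libraries 1 to 4 held 92.8, 78.5, 83.9 and 76.9 CPM. Amdhd2 was called in LPS at 0.34 ± 0.11 (adjusted p = 0.0249), but the call ended in 9 of 20 alternatives. Without KO numbers 5 and 6 the value was 0.084 (adjusted p = 0.558). Without KO LPS 5 it was 0.24 (adjusted p = 0.13), without KO LPS 6 0.30 (0.0779), without WT LPS 3 0.39 (0.061) and without WT LPS 4 0.28 (0.174). In M0 it was 0.21 ± 0.090 and not called (adjusted p = 0.105). KO M0 libraries 5 to 8 held 145, 147, 121 and 131 CPM, and WT M0 libraries 1 to 4 held 112, 124, 124 and 112 CPM. The M0 difference was called in 2 of 19 alternatives. These were the fit without KO numbers 7 and 8 (0.31, adjusted p = 0.000811) and limma with a correlated block (0.21, 0.0246).

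Nagk was called in IL-4 alone, where KO libraries held 101, 99.95, 89.8 and 104 CPM and WT libraries 81.6, 87.8, 78.5 and 88.7 CPM, each KO library above each WT library. Its log2 fold change of 0.23 ± 0.075 had an adjusted p of 0.0175. It fell short without KO IL-4 8 (0.21, adjusted p = 0.051), without WT IL-4 1 (0.22, 0.0503) and without WT IL-4 3 (0.20, 0.0594), and when neighbouring numbers were summed (0.24, 0.0808). In LPS Nagk stood at 0.24 ± 0.096 (adjusted p = 0.0579) and passed without KO LPS 7 (0.25, 0.0485), without WT LPS 1 (0.28, 0.0166) or without all 3 shallow libraries (0.27, 0.017). In M0 it stood at 0.12 ± 0.075 (adjusted p = 0.274) and passed without KO numbers 7 and 8 (0.20, 0.046). Gnpda1, Amdhd2 and Nagk thus had positive estimates in each of the 3 states in the reported fit, of which 5 of 9 were called. Over all genes, 11.8% were called higher in M0, 16.2% in LPS and 17.9% in IL-4. Library numbers recur across the states, so the 9 results may not be independent, and nothing particular to these genes was read from the count.

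LPS lowered the return and salvage genes Gnpda1, Nagk and Amdhd2 in both genotypes. In KO, 3 of the 10 members were called higher after LPS (31.2% of all genes) and 3 lower (36%). In WT, 3 were called higher (29.4%) and 4 lower (28.3%). Gnpda1 fell to 34.6, 38.0 and 28.7 CPM in deep KO LPS libraries 5, 6 and 8, while resting KO libraries held 139 to 165 CPM. In WT it fell to 29.7 and 28.4 CPM in deep LPS libraries 3 and 4, while resting WT libraries held 119 to 122 CPM. The shallow libraries held 12.0 CPM in KO and 30.9 and 10.5 CPM in WT, from 2, 6 and 2 counts. The log2 fold change was -2.16 ± 0.092 in KO (adjusted p = 3.92e-17) and -2.06 ± 0.11 in WT (adjusted p = 3.55e-15). Nagk changed by -0.47 ± 0.081 in KO and -0.59 ± 0.092 in WT on the log2 scale (adjusted p = 1.48e-05 and 4.66e-06). Amdhd2 changed by -0.41 ± 0.097 in KO and -0.55 ± 0.11 in WT (adjusted p = 0.000537 and 0.000123). These 6 calls held in all alternatives. Without the shallow libraries Nagk changed by -0.46 in KO and -0.61 in WT, and Amdhd2 by -0.39 in KO and -0.56 in WT.

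Gfpt1 moved the other way. It rose after LPS by 0.75 ± 0.083 in KO (adjusted p = 1.05e-08), to 108 to 118 CPM, where resting KO libraries held 57.1 to 74.8 CPM. In WT it rose by 0.52 ± 0.092 (adjusted p = 2.22e-05), to 84.4 and 81.5 CPM in deep WT LPS libraries, where resting WT libraries held 52.6 to 60.5 CPM. The WT call ended on plain library totals (0.17, adjusted p = 0.129), a setting in which the median gene shifted by -0.36 in this comparison and by -0.44 in the KO one. The smaller LPS responses depended on the scaling. Ogt was called higher in WT (0.19 ± 0.068, adjusted p = 0.0207) but stood at -0.17 on library totals, and at 0.042 ± 0.062 in KO, not called. The WT call of Ogt also ended without WT M0 1 (0.16, adjusted p = 0.0557), WT M0 3 (0.17, 0.055) or WT LPS 4 (0.17, 0.116).

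Pgm3 was called higher in WT after LPS (0.34 ± 0.098, adjusted p = 0.00405), a value of -0.012 on library totals, and was not called in KO (0.11 ± 0.088). Uap1 was called higher in KO (0.18 ± 0.064, adjusted p = 0.0164), a value of -0.26 on library totals, and not in WT (0.057 ± 0.072). Gfpt2 was called higher in KO (0.36 ± 0.16, adjusted p = 0.0459) and had the same estimate, uncalled, in WT (0.36 ± 0.18, adjusted p = 0.0825). Its KO call held in 8 of 21 alternatives and ended in those that left out KO M0 5, 6 or 8 or KO LPS 5, 6 or 7 (0.20 to 0.37, adjusted p = 0.052 to 0.324), and its sign turned on library totals and without KO numbers 5 and 6. Mgea5 was called lower in WT (-0.22 ± 0.066, adjusted p = 0.00594), a call that ended without WT LPS 3 (-0.20, 0.0578), and stood at -0.10 ± 0.060 in KO. Gnpnat1 was not called in KO (-0.016 ± 0.091) or in WT (0.22 ± 0.10, adjusted p = 0.0746), and passed in WT without WT LPS 3 (0.32, 0.0453).

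**Figure D4:**
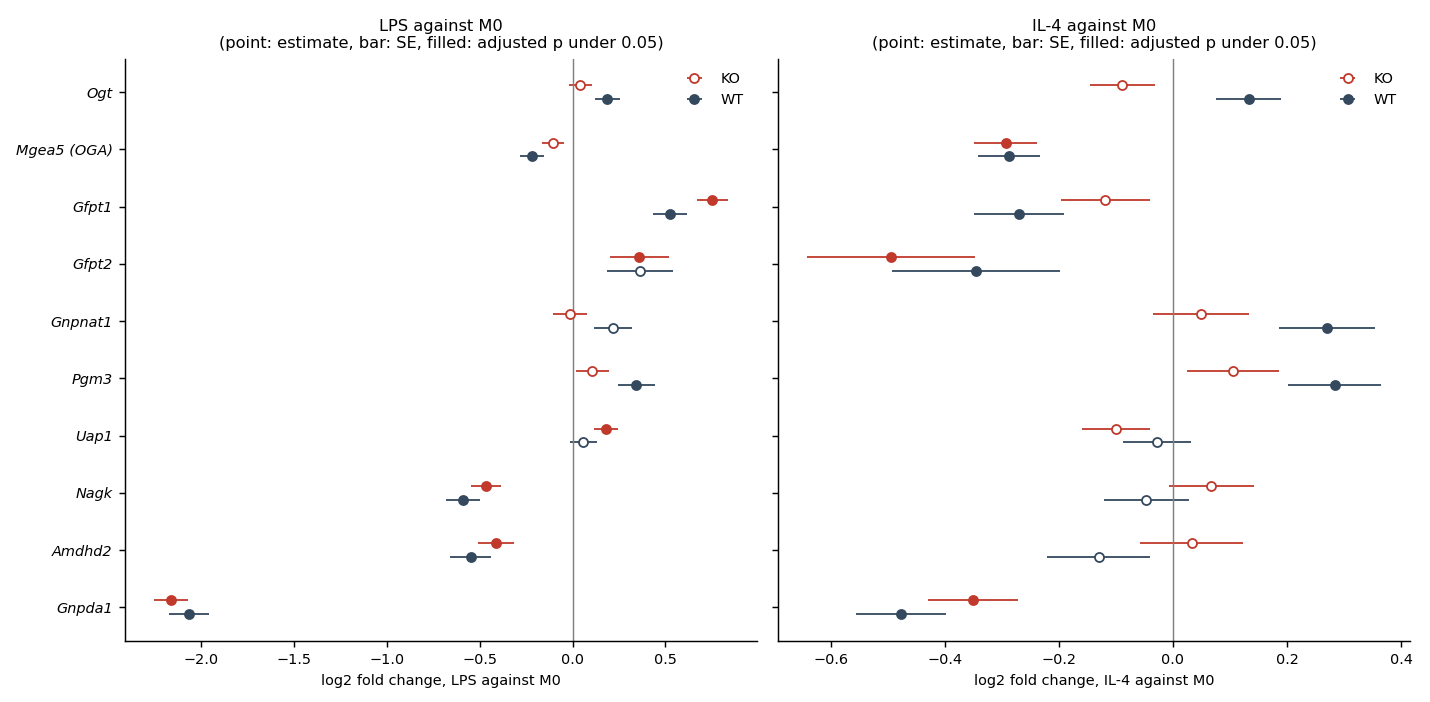
Log2 fold change (x axis) of LPS against M0 (left) and IL-4 against M0 (right) for each gene (y axis), in KO and WT, with SE bars. Filled points have an adjusted p under 0.05 (edgeR); Gnpda1 lies at -2.16 in KO and -2.06 in WT after LPS, apart from all other responses, which lie between -0.59 and 0.75.

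IL-4 lowered Mgea5, Gnpda1 and Gfpt2 in both genotypes. In KO, none of the 10 members was called higher (26% of all genes) and 3 were called lower (25.2%). In WT, 3 were called higher (30.9%) and 4 lower (29.3%). Mgea5 changed by -0.29 ± 0.055 in KO (adjusted p = 8.33e-05) and by -0.29 ± 0.055 in WT (adjusted p = 7.07e-05) on the log2 scale, with each IL-4 library below each M0 library of its genotype. Gnpda1 changed by -0.35 ± 0.079 in KO and -0.48 ± 0.079 in WT (adjusted p = 0.000626 and 1.22e-05), and the IL-4 and M0 libraries were likewise apart. These 4 calls held in all alternatives.

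Gfpt2 changed after IL-4 by -0.49 ± 0.15 in KO (adjusted p = 0.00698) and by -0.35 ± 0.15 in WT (adjusted p = 0.0463). The KO call ended when neighbouring numbers were summed (-0.47, adjusted p = 0.0549). The WT call ended in 9 of 18 alternatives, among them those that left out WT M0 1, 2, 3 or 4 or WT IL-4 1 or 3 (-0.37 to -0.27, adjusted p = 0.0557 to 0.149). Gfpt1 fell in WT (-0.27 ± 0.078, adjusted p = 0.00446; summed numbers -0.28, 0.055) and was not called in KO (-0.12 ± 0.078). Gnpnat1 and Pgm3 rose in WT, by 0.27 ± 0.084 and 0.28 ± 0.081 (adjusted p = 0.00764 and 0.00404), with WT IL-4 libraries at 21.7 to 22.5 CPM for Gnpnat1 and resting WT libraries at 17.5 to 19.7 CPM. DESeq2 called neither (adjusted p = 0.272 and 0.249), and in KO they stood at 0.049 ± 0.084 and 0.11 ± 0.081. Ogt was called higher in WT (0.13 ± 0.056, adjusted p = 0.0451) but not in 12 of 18 alternatives, among them those without WT M0 1 or 3 or WT IL-4 2, 3 or 4 (0.10 to 0.13, adjusted p = 0.0805 to 0.172), and stood at -0.089 ± 0.057 in KO. Uap1, Nagk and Amdhd2 were not called in either genotype, with estimates from -0.13 to 0.067.

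Whether KO and WT responded differently was tested by the interaction, in which the WT response is subtracted from the KO response. For LPS, 0 of the 10 members were called higher (6.62% of all genes) and 0 lower (4.79%), with 0 at an unadjusted p under 0.05 and 0 by DESeq2. For IL-4, 0 were called higher (0.47%) and 0 lower (0.667%), with 1, Ogt, at an unadjusted p under 0.05 and 0 by DESeq2. With LPS the estimate for Ogt was -0.14 ± 0.092 (adjusted p = 0.34), and with IL-4 it was -0.22 ± 0.080 (adjusted p = 0.187). With library numbers as a correlated block in limma, the IL-4 estimate of -0.22 was called (adjusted p = 0.0499). For Gfpt1 it was 0.23 ± 0.13 for LPS (adjusted p = 0.258), and 2 of 29 alternatives called it, a fixed replicate block (0.31, adjusted p = 0.0275) and leaving out KO numbers 7 and 8 (0.40, 0.00817). The responses of Gnpnat1 and Pgm3 to IL-4, called in WT alone, differed between genotypes by -0.22 ± 0.12 and -0.18 ± 0.12 (adjusted p = 0.423 and 0.524), so a difference between genotypes was not shown.

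Lists of neighbouring genes, 4 in all, place the members in the wider route, and their counts stand beside the shares of all genes called in the same comparisons. For KO against WT these shares were 11.8% higher and 10.5% lower in M0, 16.2% and 14.6% in LPS, and 17.9% and 18.2% in IL-4. Of 11 genes for the entry of glucose and glutamine, 1 was higher and 3 were lower in KO M0, 5 were higher and 2 lower in KO LPS, and 1 was higher and 2 were lower in KO IL-4, against WT of the same state. Their median log2 fold change was -0.065, 0.27 and -0.075 in these states, beside 0.015, 0.012 and 0.0065 over all genes. Slc38a1, a glutamine transporter gene, was lower in KO, with log2 fold changes of -0.73 ± 0.091 in M0 and -0.72 ± 0.091 in IL-4 (adjusted p = 2.64e-06 and 1.74e-06), and stood at -0.15 ± 0.12 in LPS, not called (adjusted p = 0.338). The glutamine synthetase gene Glul was also lower, at -0.26 ± 0.062 in M0 and -0.32 ± 0.078 in LPS (adjusted p = 0.00331 and 0.00313), and stood at -0.12 ± 0.062 in IL-4, not called (adjusted p = 0.151). The hexokinase genes Hk1 and Hk3 were higher in KO LPS, by 0.40 ± 0.076 and 0.45 ± 0.10 (adjusted p = 0.000268 and 0.00136). Without WT LPS 3 the 7 calls in LPS became 4, and without WT LPS 4 they became 3.

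After LPS itself, 10 of these 11 entry genes were called in KO (7 higher, 3 lower) and 9 in WT (6 higher, 3 lower), with medians of 0.69 and 0.43. Over all genes, 31.2% were called higher and 36% lower in KO, 29.4% and 28.3% were in WT, and the medians were -0.067 in KO and -0.014 in WT. Slc2a6, a hexose transporter gene, rose by 5.71 ± 0.19 in KO and 5.33 ± 0.20 in WT (adjusted p = 2.84e-19 and 2.6e-18), and Hk3 by 2.37 ± 0.097 and 1.96 ± 0.10. Glul had log2 fold changes of -1.65 ± 0.070 in KO and -1.6 ± 0.078 in WT. The LPS interaction was called for 3 of the 11, all with positive estimates, where 6.62% of all genes were called higher: Hk1 (0.52 ± 0.099, adjusted p = 0.000944), Slc38a1 (0.58 ± 0.15, 0.0111) and the glucose transporter gene Slc2a3 (0.71 ± 0.22, 0.039). The Slc2a3 estimate without the shallow libraries was 0.66 ± 0.19 (adjusted p = 0.0232), and 5 of the 11 were called without them. Without WT LPS 3, or without WT LPS 4, 1 was called, and without KO LPS 7, or without KO LPS 8, 5 were. IL-4 raised 5 and lowered 4 of the 11 in KO (26% and 25.2% of all genes), and raised 4 and lowered 4 in WT (30.9% and 29.3%). The IL-4 interaction was called for 0 of the 11, with 1 at an unadjusted p under 0.05 and 0 by DESeq2.

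Of 20 genes for the transport and use of UDP-GlcNAc, 1 was higher and 2 were lower in KO M0, 0 and 4 in KO LPS, and 4 and 3 in KO IL-4, with medians of -0.0091, -0.062 and -0.023. Slc35b4, which encodes a Golgi and ER nucleotide sugar transporter, was lower in KO, at -0.41 ± 0.066 in M0, -0.84 ± 0.085 in LPS and -0.46 ± 0.066 in IL-4 (adjusted p = 6.84e-05, 6.56e-08 and 8.56e-06). Dpagt1, whose enzyme spends UDP-GlcNAc on the first step of N-glycan assembly, stood at -0.44 ± 0.076, -0.68 ± 0.096 and -0.46 ± 0.076 in the same states (adjusted p = 0.000158, 8.82e-06 and 4.34e-05). The 4 calls in LPS became 2 without WT LPS 3 or without WT LPS 4. LPS raised 3 and lowered 9 of the 20 in KO (31.2% and 36% of all genes), and raised 4 and lowered 2 in WT (29.4% and 28.3%). IL-4 raised 7 and lowered 6 in KO (26% and 25.2%), and raised 8 and lowered 6 in WT (30.9% and 29.3%). The LPS interaction was called for 2 of the 20, both with negative estimates, where 4.79% of all genes were called lower. Its median was -0.14, beside -0.016 over all genes, and 1 to 2 were called when single libraries were left out.

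Of 10 genes for lysosomal release of N-acetylglucosamine, 2 were higher and 2 lower in KO M0, 2 and 0 in KO LPS, and 4 and 2 in KO IL-4, with medians of -0.0044, 0.11 and 0.038. Naglu, which encodes a lysosomal alpha-N-acetylglucosaminidase, was lower in KO, at -0.23 ± 0.055 in M0 and -0.28 ± 0.055 in IL-4 (adjusted p = 0.00305 and 0.000375). The 2 calls in LPS became 1 without KO LPS 5, KO LPS 6 or WT LPS 3, and the 6 in IL-4 became 3 without KO IL-4 5, WT IL-4 1 or WT IL-4 2. LPS raised 3 and lowered 4 in KO (31.2% and 36% of all genes), and raised 2 and lowered 4 in WT (29.4% and 28.3%). IL-4 raised 2 and lowered 4 in KO (26% and 25.2%), and raised 2 and lowered 5 in WT (30.9% and 29.3%).

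Of 9 genes of the sialic acid branch and second-copy enzymes, 0 were higher and 1 lower in KO M0, 0 and 0 in KO LPS, and 1 and 1 in KO IL-4, with medians of -0.031, -0.077 and -0.073. The 0 of LPS was also 0 by DESeq2 and 0 at an unadjusted p under 0.05, and was 1 without KO LPS 8. Npl, which splits sialic acid, was the gene that fell, at -0.96 ± 0.14 in M0 and -0.85 ± 0.14 in IL-4 (adjusted p = 1.86e-05 and 4.95e-05). After LPS 6 of the 9 were lower in KO, where 36% of all genes were, and 4 in WT, where 28.3% were, with none higher (31.2% in KO and 29.4% in WT). Npl had log2 fold changes of -2.49 ± 0.18 in KO and -3.0 ± 0.21 in WT. Gnpda2, the second copy of Gnpda1, was lower after LPS, at -0.35 ± 0.068 in KO and -0.47 ± 0.078 in WT (adjusted p = 7.34e-05 and 1.01e-05). IL-4 raised 2 and lowered 2 of the 9 in KO (26% and 25.2% of all genes), and raised 1 and lowered 1 in WT (30.9% and 29.3%). In KO the 4 calls became 2 without KO M0 7 or without KO IL-4 6.

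The genes with group means most like those of Ogt were sought among 10318 genes with at least 5 CPM. Likeness was the root mean square difference between 6 centred group means of log2 CPM, over the 21 deep libraries. Nearest to Ogt were Galt (0.068), Napsa (0.076) and Actr5 (0.080). Nearest to Mgea5 were Rbbp9 (0.059), Foxred2 (0.066) and Elmod3 (0.073). Gnpda1 had the widest span of the 10, 2.36 on the log2 scale between its highest group, KO M0, and its lowest, WT LPS, and nearest to it were Zfp704 (0.072), Gpr155 (0.10) and Camk1 (0.12). Zfp704 stood at 1.14 in KO M0, 0.70 in WT M0, -1.19 in KO LPS, -1.41 in WT LPS, 0.64 in KO IL-4 and 0.12 in WT IL-4 around its own mean, on the log2 scale. These are descriptions of 6 group means that share libraries and depth.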

How the data were processed

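The authors deposited raw counts of reads per gene symbol, 1 file per library, with 5 summary lines that were left out of all totals and tests (8.76% to 9.98% of each file's reads). Per the submitters' processing notes, TopHat2 2.1.0 and HTSeq 0.9.1 were used with the mouse genome mm10 (GRCm38). The sources used here do not give the annotation, library kit or strand setting, so reads of overlapping and antisense genes cannot be told apart.

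The analysis used edgeR 4.0.16 in R 4.3.3, with TMM scaling, the filterByExpr filter by group and quasi-likelihood tests. A single fit of the 24 libraries gave each group a coefficient and left 18 residual degrees of freedom. There were 9 contrasts: KO against WT in the 3 states, each stimulus against M0 in each genotype, and 2 interactions. P-values were adjusted by Benjamini-Hochberg over the 14693 genes of a contrast, and a gene was called at an adjusted p under 0.05. The Ogt per Mgea5 ratio was tested by exact permutation over libraries. Errors are SE for log2 fold changes and SD for levels. The edgeR SE was derived as the size of the estimate divided by the square root of the quasi-likelihood F statistic. Total counts per library gave the depth, and intervals and floors cover counting error only. No pair of libraries of a group differed by less than sampling noise (chi-square per degree of freedom at least 1.31). KO libraries with neighbouring numbers were closer: in M0 the value was 9.09 for 5 and 6 and 8.51 for 7 and 8. It was 46.99 to 63.79 for the other KO M0 pairs. In KO IL-4 it was 15.7 and 28.0 for the neighbours and 49.1 to 74.8 for the others. In deep KO LPS libraries it was 7.65 for 5 and 6, and 80.8 and 68.8 for these with 8. Whether the 4 KO libraries of a state are independent is not known.

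All 10 members are named, and for each of the 4 neighbouring gene lists up to 3 called genes with the smallest adjusted p may be. The values of 1 further gene on these lists are not reported here. The members and lists were chosen with earlier results of these data known. Promoter windows, gene positions and exon lengths came from RefSeq (GRCm38.p6) and GENCODE M21 (GRCm38). Alternatives were other scalings, DESeq2 1.42.0, limma 3.58.1 with a label number block, no low-count filter, separate fits, and leaving out libraries.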

Additional observations from a re-analysis of the deposited data

Results flagged for a closer look

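In 66 groups of 4 values (10 members and the Ogt per Mgea5 ratio in 6 groups), 5 values stood far from the other 3 of their group by Dixon's ratio at its 95% critical value. Chance alone flags about 1 in 20 groups. Of these, 3 came from shallow LPS libraries: Pgm3 at 0 CPM in KO LPS 7 (0 counts), where the others held 17.5 to 19.3 CPM; Uap1 at 53.8 CPM in KO LPS 7 (9 counts), where the others held 33.4 to 35.3 CPM; and Gnpda1 at 10.5 CPM in WT LPS 2 (2 counts), where the others held 28.4 to 30.9 CPM. The other 2 came from deep libraries. Gnpnat1 stood at 21.7 CPM in WT IL-4 1, where the others held 22.4 to 22.5 CPM, and Amdhd2 stood at 115 CPM in WT IL-4 2, where the others held 105 to 106 CPM. No member's interaction between genotype and stimulus was called.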

How the results depend on the processing

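Of 90 results (10 members in 9 contrasts), 38 were called, and 20 of these held in all alternatives run; 34 kept their sign in all. Of 52 uncalled results, 18 were called in some alternative. Among results called in the reported fit or in the alternative, signs turned on plain library totals for LPS against M0. In KO these were Ogt (-0.40), Gfpt2 (-0.087), Pgm3 (-0.33) and Uap1 (-0.26), and in WT Ogt (-0.17), Pgm3 (-0.012) and Uap1 (-0.30). The sign of Gfpt2 in KO also turned without KO numbers 5 and 6 (-0.035). A further 75 sign changes, over all members and alternatives, were called in neither fit. On library totals the median gene moved by -0.44 in KO and -0.36 in WT. It moved by -0.17 for LPS in KO with the compared groups alone.

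The number of members called in KO against WT in M0, 5 in the reported fit, was 3 on library totals, with DESeq2, with the compared groups alone and with KO LPS 5 as TMM reference library (chosen after seeing the data), 2 with neighbouring numbers summed, and 3 to 5 when single libraries were left out. For IL-4 against M0 in KO it was 3, then 5 with DESeq2 size factors and 6 on library totals. For IL-4 against M0 in WT it was 7, then 3 with DESeq2 and 3 with numbers summed, and 5 to 6 without single libraries. Without KO numbers 7 and 8 the LPS interaction called 1 (Gfpt1).

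For the Ogt per Mgea5 ratio in LPS, the log2 difference was -0.44 without KO numbers 5 and 6 and -0.50 without 7 and 8 (adjusted p = 0.2 each), -0.25 without the shallow libraries (0.15), and -0.56 to -0.34 without single libraries. In IL-4 it was -0.25 without 5 and 6, -0.21 without 7 and 8 (0.2 each) and -0.25 to -0.22 without single libraries. Such designs cannot pass the threshold after adjustment. In M0 it was -0.039 to 0.0076 without single libraries.

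Library numbers recur across states within a genotype, and what they mark is not given. Of 18 pairs of deep libraries with the same number, 12 had deviations correlated above 0.1 (range -0.10 to 0.62), and 8 libraries correlated best with their own number. The genotypes differed in this: all deep KO pairs were above 0.1 (0.107 to 0.62). Among deep WT pairs only numbers 2 and 4 between IL-4 and M0 were (0.61 and 0.27). With a fixed replicate block, the LPS interaction called 1 member (Gfpt1), and with a correlated block in limma (0.205) the IL-4 interaction called 1 (Ogt). For KO against WT no number is shared, so only the correlated block applied.

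Over all genes, KO against WT called 3279 in M0, 4534 in LPS and 5307 in IL-4, against 1441, 2671 and 2806 with DESeq2 and 586, 2165 and 1900 with numbers summed, and 3013 in LPS without WT LPS 4. IL-4 against M0 in KO called 7534, against 4874 and 4739. The LPS interaction called 1676, against 80 to 2987, and the IL-4 interaction 167, against 0 to 1118. Higher calls made up 46.4% of calls for LPS in KO (20.8% on totals, 34.5% with the compared groups alone), 50.99% for LPS in WT (22.5% on totals), 50.8% and 51.3% for IL-4 in KO and WT (37.7% and 40.9%), 52.6% for KO against WT in LPS (32.7%), 53% in M0 (42.02% with KO LPS 5 as TMM reference) and 58% for the LPS interaction (34.6%, 74.9% with DESeq2, 91.25% with numbers summed and 47.4% without KO numbers 5 and 6) and 41.3% for the IL-4 interaction (58.5% without KO numbers 7 and 8). The cause of these shifts was not tested. The 3 shallow libraries limit LPS results: 3 counts are at least 15.5 CPM there.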
